A study of Rattus norvegicus with 4 samples.

Results

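Skeletal muscle of a sedentary SPORTS rat was set against skeletal muscle of sedentary wild-type (WT) rats. SPORTS is a hyperactive mutant rat, and both it and the WT rats are of the Wistar strain. The comparison used 3 of the 4 arrays of the series, chosen by the source names in the labels: 1 array of the sedentary SPORTS rat and 2 WT arrays. All came from males aged 15 weeks, and the design text gives the WT rats as sedentary. The fourth array, of an exercised SPORTS rat, shares the same genotype as the sedentary one. It entered only the rule on which genes were detectable, and its values are given beside a few results. Which muscle was taken and which gene is mutated are not in the labels, nor is whether separate animals gave the WT arrays. The p-values therefore cover no more than the spread seen among these samples, part or all of which may be technical, and the lone SPORTS array was assumed to vary like the WT pair.

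Skeletal muscle mixes slow fibres, which contract for long periods on oxidative metabolism, with fast fibres, and each kind builds its sarcomere from its own isoforms of myosin, troponin and tropomyosin. Muscle cells also hold a circadian clock, in which BMAL1 with CLOCK or NPAS2 switches on genes through E-box sequences, and the period, cryptochrome and REV-ERB proteins made from such genes act back on it. Interferon-induced genes are another group treated here. Many of them carry an interferon-stimulated response element (ISRE) in the promoter, which interferon regulatory factors and the STAT complex bind.

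Levels are given as log2 signal relative to the 75th percentile of the array, so 0 is the signal of a fairly bright probe and each step of 1 is a doubling. Differences are the SPORTS value minus the mean of the WT arrays on that scale, ± the standard error of the limma fit. Of 13326 genes or unnamed transcripts tested, limma called 836, or 6.27%, at an adjusted p below 0.05. Higher calls were 2.82% and lower calls 3.45% of all genes tested. Since this test rests on 1 residual degree of freedom, a second count was taken of genes for which the SPORTS array lay at least 2-fold beyond both WT arrays. That held for 540 genes, or 4.05%, with 1.88% above and 2.17% below, and 402 of the 540 were also called by limma. Between the WT arrays themselves a gap of 2-fold or more occurred for 1.13% of genes. The median difference over all genes tested was -0.01. Both counts depend on the settings. With no filter on detection limma called 0 genes, although 5509 had an unadjusted p below 0.05, and against 1 WT array at a time the 2-fold count was 686 without WT replicate 2 and 873 without WT replicate 1.

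**Figure D1:**
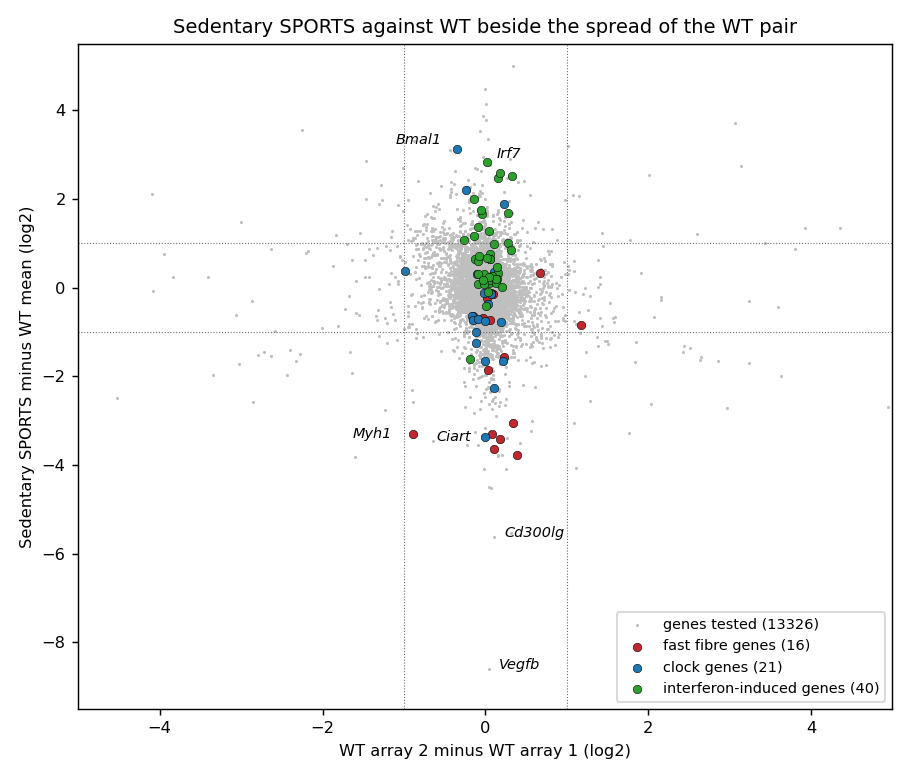
Difference between the sedentary SPORTS array and the WT mean (y axis, log2) against the difference between WT arrays 2 and 1 (x axis, log2) for 13326 genes. Grey points are all genes tested, coloured points are 3 of the gene lists, and dotted lines mark 2-fold. Most listed genes far from 0 on the y axis lie near 0 on the x axis, with Myh1 an exception at -0.88.

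The labelled tissue was checked against markers. All 16 fast fibre genes and all 14 slow fibre genes on the array were well above background on the 3 arrays compared, by the flag of the scanner software. Of 8 liver markers, none was well above background on the WT arrays and 1 was on the SPORTS array. Of 8 gut and kidney markers, 1 was on WT array 1 and none on the other arrays. The share of probes well above background was 48.7% and 48.9% on the WT arrays and 50.3% on the SPORTS array.

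Among genes with a symbol, the widest gaps belonged to a pair of genes whose signal was lost on the SPORTS array. Vegfb, a gene for a VEGF family growth factor, lay at 2.69 and 2.73 on the WT arrays and at -5.89 on the SPORTS array, where it was not well above background. Cd300lg, which encodes a receptor of capillary endothelium, lay at 0.22 and 0.33 and at -5.36. The WT arrays differed by 0.04 for Vegfb and by 0.11 for Cd300lg. Against the detection limit, Vegfb was at least 90.7-fold lower (adjusted p = 0.0277, limma) and Cd300lg at least 16.8-fold lower (adjusted p = 0.0277, limma). A second probe of Cd300lg lay at -1.85 and -1.77 on the WT arrays and at -5.46 on the SPORTS array, and Vegfb has 1 probe. The exercised SPORTS array gave -5.47 for Vegfb and -4.02 for Cd300lg.

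The signal of the nearest tested genes beside these loci, in the gene order of the RefSeq GRCr8 assembly, did not drop in the same way. Fkbp2 and Dnajc4, on either side of Vegfb, differed by 0.02 ± 0.08 and 0.03 ± 0.07, and the next genes out, Ppp1r14b and Nudt22, by 0.52 ± 0.07 and -0.38 ± 0.11. None of these 4 passed the test. Beside Cd300lg, Dusp3 and Tmem101 differed by 0.14 ± 0.06 and 0.36 ± 0.07 and did not pass. Lsm12, one gene further, differed by 0.25 ± 0.07 and did not pass, but Meox1, the second gene on the other side, was at least 2.47-fold lower (adjusted p = 0.0361, limma).

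Of 18 angiogenesis genes tested, Vegfb and Angpt1 were called lower and none higher, against 3.45% and 2.82% of all genes. Angpt1, which encodes a ligand of the endothelial receptor TIE2, fell from -0.38 and -0.41 on the WT arrays to -1.44 (difference -1.04 ± 0.06, adjusted p = 0.0382, limma). Vegfa differed by 0.54 ± 0.14, and the VEGF receptor genes Kdr and Flt1 by 0.42 ± 0.08 and 0.03 ± 0.06, without passing. Of 10 endothelial markers tested, Cd300lg alone lay 2-fold or more beyond both WT arrays, which for so short a list is near the 4.05% of all genes. Pecam1 and Cdh5, which encode junction proteins that define endothelium, differed by 0.04 ± 0.06 and -0.04 ± 0.12.

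Genes of the fast sarcomere were lower on the SPORTS array. Of 16 tested, 9 fell and none rose by limma, against 3.45% and 2.82% of all genes, and 8 were 2-fold or more below either WT value against 2.17%. Their median difference was -1.20, beside -0.01 for all genes. All 3 adult fast myosin heavy chain genes lay 2-fold or more below both WT arrays. Myh4, the heavy chain of the fastest fibres (type 2B), lay at 1.03 and 1.41 on the WT arrays and at -2.56 on the SPORTS array. Myh2, the chain of type 2A fibres, lay at 6.24 and 6.34 and at 2.65. Myh1, the chain of type 2X fibres, lay at 5.17 and 4.29 and at 1.43. The WT arrays overlapped with the SPORTS array for none of them, but they lay 0.88 apart for Myh1. Myh2 and Myh4 fell by 3.64 ± 0.08 and 3.78 ± 0.21 (adjusted p = 0.0319 and 0.0365, limma), and Myh1, at -3.30 ± 0.46, did not pass (adjusted p = 0.0593). A second probe of Myh2 differed by -5.15. The heavy chain genes are near-identical in sequence over long stretches, so how far each probe reads its own gene was not tested.

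The regulatory proteins of the fast thin filament were lower too. Tnnt3 and Tnni2, which encode fast troponin T and troponin I, lay at 7.32 and 7.51 and at 8.16 and 8.23 on the WT arrays. On the SPORTS array they lay at 4.0 and 4.89. They fell by 3.42 ± 0.11 and 3.31 ± 0.07 (adjusted p = 0.0319 and 0.0319, limma). Tnnc2, fast troponin C, fell less, by 1.86 ± 0.06. Tpm1, alpha tropomyosin, fell by 3.05 ± 0.18 on its brighter probe, from 6.48 and 6.81 to 3.59, while its other probe, with signals of 1.21 and 1.33 on the WT arrays, differed by 0.64 the other way. Among myosin light chains, Myl11, the fast regulatory chain, fell by 1.57 ± 0.13, and Myl1, the fast essential chain, differed by -0.24 ± 0.06 without passing. Mylk2, the kinase that phosphorylates the regulatory chain in skeletal muscle, fell by 0.68 ± 0.06, and its second probe differed by -0.71.

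Fast fibre proteins outside the filaments differed less. Myoz1, a calcineurin-binding protein of the Z-disc, fell by 0.72 ± 0.07. Actn3, the fast alpha-actinin, lay at 1.20 and 2.38 on the WT arrays and at 0.96 on the SPORTS array, a gap smaller than the one between the WT arrays. The calcium buffer Pvalb lay at 0.33 and 1.0 on the WT arrays and at 0.99 on the SPORTS array, between them. The fast calcium pump Atp2a1 and the calcium store protein Casq1 differed by -0.64 ± 0.10 and -0.11 ± 0.07. None of these 4 passed the test. Of 16 tested genes of excitation and calcium release, which include the calcium channel and its release partners, none was called in either direction. For so short a list this is near the 6.27% of all genes. Their differences ran from -0.36 to 0.36.

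**Figure D2:**
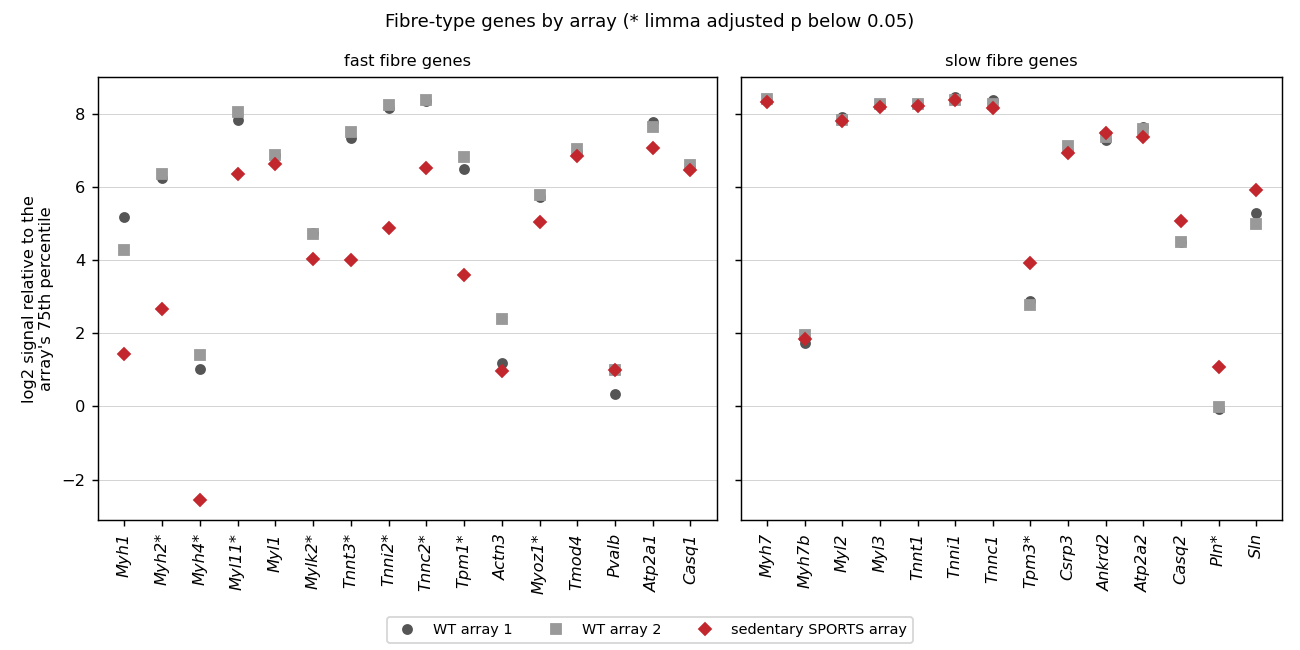
Level of each fast and slow fibre gene on the 3 arrays (y axis, log2 signal relative to the array's 75th percentile; filled symbols are well above background). The red SPORTS points of Myh2, Myh4, Tnnt3, Tnni2 and Tpm1 sit 3.05 or more below the WT mean, while those of Myh7, Myl2, Myl3, Tnnt1, Tnni1 and Tnnc1 nearly coincide with the WT points.

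The slow sarcomere showed no such shift. Myh7, the slow heavy chain, lay at 8.36 and 8.40 on the WT arrays and at 8.31 on the SPORTS array. The slow troponin genes Tnnt1, Tnni1 and Tnnc1 differed by -0.04 ± 0.06, -0.03 ± 0.07 and -0.17 ± 0.09, and the slow light chains Myl2 and Myl3 by -0.07 ± 0.07 and -0.07 ± 0.06. The number of saturated probes was 0. Over 14 slow fibre genes the median was -0.04, and 2 rose. Pln, phospholamban, the inhibitor of the slow calcium pump, rose by 1.12 ± 0.07 from -0.07 and -0.03 to 1.07. Tpm3, slow tropomyosin, rose by 1.1 ± 0.09, but its second and much dimmer probe differed by -0.44. The slow pump gene Atp2a2 differed by -0.23 ± 0.07, and sarcolipin, Sln, another pump inhibitor, by 0.77 ± 0.17, neither of which passed. Setting the exercised SPORTS array beside these values, Myh7 lay at 6.16, Tnni1 at 4.98 and Myh4 at 8.63 there.

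Of 7 developmental and cardiac isoforms tested, 1 lay 2-fold or more above both WT arrays and 1 as far below. Of all genes, 1.88% and 2.17% did so, and in so short a list these counts say little. Tnnt2, cardiac troponin T, which is also made in developing skeletal muscle, lay at 1.34 and 1.20 on the WT arrays and at 3.61 on the SPORTS array. It rose by 2.34 ± 0.09, or 5.06-fold (adjusted p = 0.0322, limma). Myh8, the perinatal heavy chain, fell by 1.64 ± 0.08 from 8.41 and 8.30, and Myh3, the embryonic chain, differed by -0.08 ± 0.06. As for the adult fast chains, how far the probes of Myh8 and Myh3 read their own genes was not tested. Actc1, cardiac actin, differed by 0.99 ± 0.11 without passing. The ventricular and atrial markers Nppa, Nppb and Myl7 and the cardiac factors Nkx2-5 and Gata4 were not well above background on any of the 3 arrays. Of 10 sarcomere genes shared by fibre types, 1 lay 2-fold or more beyond both WT arrays, which for so short a list is near the 4.05% of all genes. It was Myom2, an M-band protein of fast fibres, which fell by 1.88 ± 0.08. Acta1, skeletal actin, differed by -0.11 ± 0.07 and desmin, Des, by 0.10 ± 0.13.

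Regulators of muscle identity differed in a few members. Of 15 regulators of fibre type tested, none lay 2-fold or more beyond both WT arrays, which for so short a list is near the 4.05% of all genes. Vgll2, a cofactor of TEAD factors, rose by 0.73 ± 0.06. Myod1, the myogenic factor of fast fibres, fell from 1.15 and 1.21 on the WT arrays to 0.14 (difference -1.04 ± 0.07, adjusted p = 0.0383, limma). Cdh15, M-cadherin of satellite cells, fell by 1.01 ± 0.06. Myog and Myf6 differed by 0.51 ± 0.06 and 0.49 ± 0.09 and did not pass. Hes1, a repressor induced by Notch, was at least 3.97-fold higher, with WT values of -5.78 and -5.78 that were not well above background and -1.63 on the SPORTS array. It passed the detection filter only through the SPORTS arrays. Nrarp, another Notch target, rose by 0.82 ± 0.07. The receptor and ligand genes Notch1, Notch3 and Jag1 differed by 0.11 ± 0.14, -0.13 ± 0.06 and -0.24 ± 0.07, and Hey2 and Heyl, further targets, by -0.48 ± 0.09 and 0.01 ± 0.13, without passing. Of 13 limb position genes tested, 12 lay below both WT arrays, beside 45.1% of all genes, with a median of -0.37. Meox1 alone lay 2-fold or more below both, beside 2.17% of all genes.

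Clock genes differed in opposite directions by role. Of 22 on the array all but Per1 passed the detection filter, and of the 21 tested 3 rose and 7 fell, against 2.82% and 3.45% of all genes, with 3 of them 2-fold or more above the higher WT value and 5 as far below the lower one. Promoter sequences of 16 of the 21 were found in RefSeq (build GRCr8) and searched, on both strands from 250 bases before to 50 after the start site, for 3 motifs: the E-box CACGTG, the D-box (TTA, any base, GTAA) and the ROR element (AA, any base, TAGGTCA). An E-box was found in 3 of the 16, beside 6.65% of 27457 promoters and 9.77% of the 6978 of tested genes. A D-box was found in 1, beside 2.19% and 1.22%, and a ROR element in 1, beside 0.222% and 0.143%. The 250 bases before the start site are given for 3 genes with a match and a called difference, with the matched letters in capitals. The sequence of Ciart, with 3 E-boxes, is from chr2:186112247-186112496, minus strand, that of Per2, with a D-box, from chr9:99496994-99497243, minus strand, and that of Bmal1, with a ROR element, from chr1:176766078-176766327, plus strand. A match describes the letters and shows no binding.

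Ciart: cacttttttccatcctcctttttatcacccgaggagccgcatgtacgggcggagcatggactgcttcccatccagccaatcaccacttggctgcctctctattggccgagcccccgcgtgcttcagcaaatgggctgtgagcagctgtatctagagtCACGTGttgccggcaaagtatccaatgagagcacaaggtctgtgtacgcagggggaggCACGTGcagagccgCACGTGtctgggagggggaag

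Per2: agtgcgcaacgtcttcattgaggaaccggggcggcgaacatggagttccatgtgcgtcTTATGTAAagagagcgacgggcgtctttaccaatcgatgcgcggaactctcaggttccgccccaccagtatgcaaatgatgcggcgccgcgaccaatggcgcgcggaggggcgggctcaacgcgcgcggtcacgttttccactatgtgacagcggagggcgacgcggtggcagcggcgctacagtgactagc

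Bmal1: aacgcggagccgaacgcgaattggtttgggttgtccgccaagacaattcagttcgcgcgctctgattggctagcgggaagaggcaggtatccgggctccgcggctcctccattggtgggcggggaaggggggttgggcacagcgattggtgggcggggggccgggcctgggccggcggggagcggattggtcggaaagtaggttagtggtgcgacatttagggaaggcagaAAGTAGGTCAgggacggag

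Of 4 activators of the loop tested, 2 rose. Bmal1, whose promoter holds the ROR element, lay at -2.04 and -2.39 on the WT arrays and at 0.92 on the SPORTS array. Npas2, a partner of BMAL1 that can stand in for CLOCK, lay at -3.11 and -3.35 and at -1.02. They rose by 3.14 ± 0.19 and 2.21 ± 0.14, or 8.81-fold and 4.64-fold (adjusted p = 0.0382 and 0.0383, limma). A second probe of Bmal1, above background on the SPORTS array alone, differed by 3.08, whereas that of Npas2 differed by 0.25. Clock itself lay at -3.26 and -4.25 on the WT arrays, of which 1 was not well above background, and at -3.38 on the SPORTS array, between them, and Bmal2, a relative of Bmal1, differed by -0.64 ± 0.10 without passing.

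Of 5 repressors tested, 3 fell. Ciart, a repressor of the BMAL1 complex whose promoter holds 3 E-boxes, lay at -2.62 and -2.62 on the WT arrays. It was not well above background on the SPORTS array, which makes it at least 2.25-fold lower. Its limma call rests on the measured difference of -3.37, which includes that dim signal. Per2, with the D-box, fell by 1.66 ± 0.13 from -0.85 and -0.63 to -2.40, and Per3 by 1.25 ± 0.09. The other 2, Cry1 and Cry2, differed by 0.35 ± 0.08 and -0.36 ± 0.06. The REV-ERB genes Nr1d1 and Nr1d2, repressors that bind the ROR element, differed by -0.73 ± 0.10 and -0.72 ± 0.08, and both lay below both WT arrays without passing.

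All 4 output factors tested were called. Dbp and Tef, activators that bind the D-box, lay at 6.07 and 6.17 and at 3.25 and 3.24 on the WT arrays and at 3.85 and 1.59 on the SPORTS array. They fell by 2.27 ± 0.08 and 1.66 ± 0.06. The other 2 probes of Dbp differed by -2.21 and -2.31. Nfil3, a repressor that binds the same D-box, rose by 1.90 ± 0.13 from -1.64 and -1.42 to 0.37. Bhlhe40, an E-box repressor, fell by 0.99 ± 0.08. Among enzymes around the clock, the ubiquitin protease gene Usp2 fell by 0.76 ± 0.06, and the kinase gene Csnk1d differed by -0.14 ± 0.07. Setting the exercised SPORTS array beside these, Bmal1 lay at 1.94, Nfil3 at 2.34 and Dbp at 2.73 there. The hour at which each muscle was taken is not given in the sources used here.

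**Figure D3:**
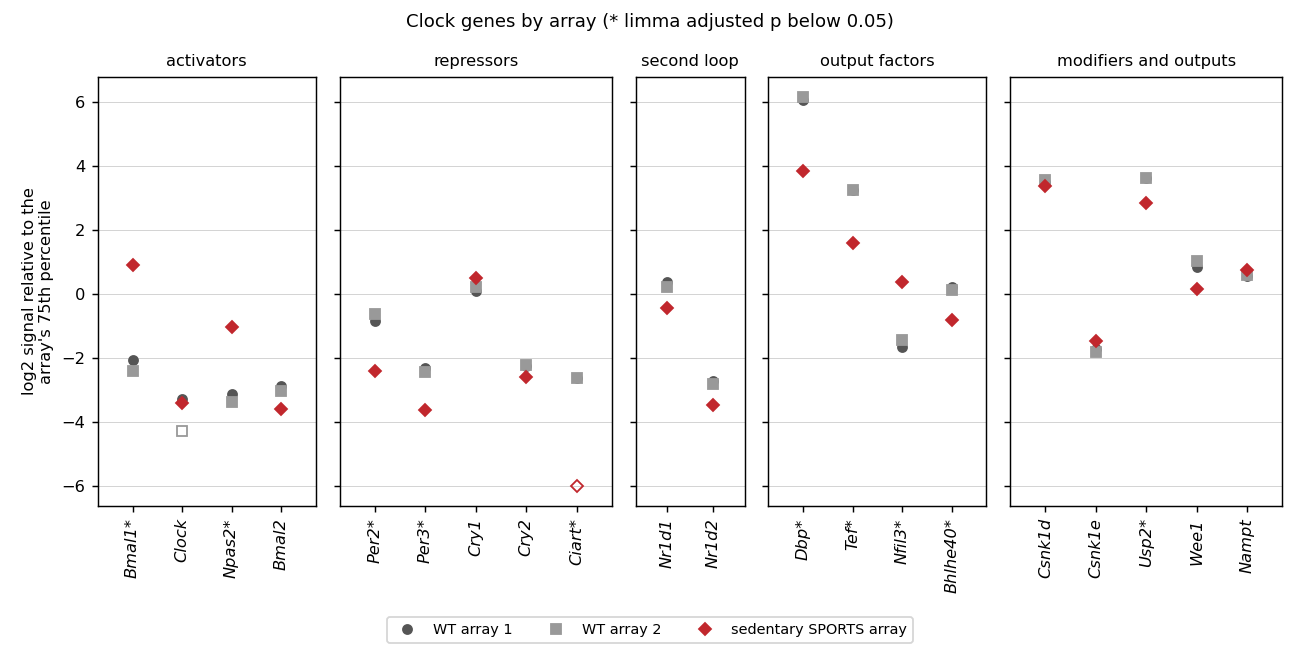
Level of clock genes on the 3 arrays, by role (y axis, log2 signal relative to the array's 75th percentile; open symbols are not well above background). The red SPORTS points of Bmal1, Npas2 and Nfil3 lie above both WT points, and those of Per2, Per3, Ciart, Dbp, Tef and Bhlhe40 below.

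Interferon-induced genes were mostly higher on the SPORTS array. Of 53 on the array, 40 passed the detection filter, and of these 14 rose and 1 fell, against 2.82% and 3.45% of all genes, and 36 lay above both WT arrays against 42.1%. The list had a median of 0.65. Members 2-fold or more above both WT arrays numbered 11, beside 1.88% of all genes, and 9 with detection on the 3 arrays compared. Promoters of 31 of the 40 were found in RefSeq (build GRCr8) and searched on both strands for the core of the ISRE (GAAA, any 2 bases, GAAA). It was present in 20 of them, or 64.5%, in 3.77% of 27457 promoters and in 2.91% of the 6978 of tested genes. Among the 11 called genes with a promoter in the table, 8 held the core. The 250 bases before the start site are printed for 4 of these 8, with the matched core in capitals on whichever strand it lies. They are from chr1:205800024-205800273, minus strand for Irf7, chr10:33742579-33742828, minus strand for Irgm, chr16:18254968-18255217, minus strand for Bst2 and chr6:48788121-48788370, minus strand for Rsad2.

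Irf7: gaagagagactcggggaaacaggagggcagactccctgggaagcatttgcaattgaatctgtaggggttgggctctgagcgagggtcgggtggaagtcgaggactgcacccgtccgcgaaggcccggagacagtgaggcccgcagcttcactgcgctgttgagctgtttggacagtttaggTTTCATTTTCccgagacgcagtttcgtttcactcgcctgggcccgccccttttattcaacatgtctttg

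Irgm: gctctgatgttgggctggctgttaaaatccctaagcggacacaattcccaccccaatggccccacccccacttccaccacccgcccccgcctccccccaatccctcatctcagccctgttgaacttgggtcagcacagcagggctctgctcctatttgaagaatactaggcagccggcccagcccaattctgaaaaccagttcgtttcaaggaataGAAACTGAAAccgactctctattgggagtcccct

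Bst2: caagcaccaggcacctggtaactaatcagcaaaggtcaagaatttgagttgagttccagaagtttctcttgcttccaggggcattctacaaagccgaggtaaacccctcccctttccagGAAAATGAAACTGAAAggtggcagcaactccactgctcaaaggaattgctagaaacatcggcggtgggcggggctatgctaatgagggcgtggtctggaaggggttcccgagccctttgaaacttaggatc

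Rsad2: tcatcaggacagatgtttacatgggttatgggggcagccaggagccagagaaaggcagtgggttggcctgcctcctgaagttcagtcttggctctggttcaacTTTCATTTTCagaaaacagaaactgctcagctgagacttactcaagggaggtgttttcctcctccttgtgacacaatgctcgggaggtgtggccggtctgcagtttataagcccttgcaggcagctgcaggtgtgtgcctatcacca

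Among signalling factors, Irf7, the interferon regulatory factor that amplifies interferon production, lay at -0.13 and -0.11 on the WT arrays and at 2.70 on the SPORTS array. It rose by 2.83 ± 0.06, or 7.10-fold (adjusted p = 0.0319, limma). Isg15, a ubiquitin-like modifier, rose from -1.52 and -1.37 to 1.03, and Usp18, the protease that removes it, from -2.44 and -2.58 to -0.50. Their differences were 2.48 ± 0.10 and 2.01 ± 0.10, and a second probe of Usp18 differed by 1.81. Stat2 and Irf9, parts of the complex that binds the ISRE, differed by 0.25 ± 0.08 and 0.30 ± 0.06. They lay above both WT arrays and did not pass. Outside the signalling factors, Parp14 rose by 0.76 ± 0.07, and Tlr3, a receptor for double-stranded RNA, differed by -0.42 ± 0.06.

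Of 24 effectors tested 7 rose, against 2.82% of all genes, and 17 did not pass. Mx1, an antiviral GTPase, lay at -1.52 and -1.19 on the WT arrays and at 1.16 on the SPORTS array, a rise of 2.51 ± 0.18. Bst2 (tetherin), which holds budding virus at the cell surface, rose from 1.75 and 1.69 to 3.48. Rsad2 (viperin), an antiviral enzyme, rose from -2.48 and -2.20 to -0.66. In each of these 3 the SPORTS value lay further from both WT values than those lay from each other. Ifi27l2b rose by 1.65 ± 0.07, with 1.56 on its second probe, Lgals3bp, a secreted glycoprotein, by 1.36 ± 0.08, Oasl2, an oligoadenylate synthetase-like protein, by 1.28 ± 0.07 and Rtp4 by 0.99 ± 0.08. Mx2, Ifit2, Ifit3 and Oas1b, also effectors, differed by 0.20 ± 0.09, 0.09 ± 0.08, 0.10 ± 0.09 and 0.18 ± 0.07 without passing, and of these Ifit3 and Oas1b hold the ISRE core. Of 5 GTPases tested 3 rose. Irgm was at least 3.08-fold higher, with WT values not well above background, Ifi47 was at least 2.24-fold higher and Gbp2 rose by 0.67 ± 0.06. Irgm and Ifi47 passed the detection filter only through the SPORTS arrays, so for them a fall could not have been seen. RGD1309362, which RefSeq also lists as Ifgga1 and which is in none of the gene lists, lay at -2.46 and -2.49 on the WT arrays and at 1.39 on the SPORTS array, the widest rise among genes with a symbol measured on both sides (3.87 ± 0.06, adjusted p = 0.0277, limma). The chemokine gene Cxcl9, which interferon gamma induces, went the other way and fell by 1.61 ± 0.12, from 0.19 and 0.00 to -1.51.

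Genes that present antigen lay above both WT arrays in every case tested. For class I, which displays peptides made inside the cell, this held for 16 of 16 genes, beside 42.1% of all genes and the median was 0.55. Of the 16, 4 rose by limma, against 2.82% of all genes. They were the class I genes RT1-A2 (0.83 ± 0.06) and RT1-N3 (0.99 ± 0.09) and the immunoproteasome subunits Psmb8 (0.96 ± 0.07) and Psmb9 (0.71 ± 0.06). B2m, the shared light chain, lay at 4.43 and 4.52 on the WT arrays and at 5.03 on the SPORTS array without passing, and the peptide transporter genes Tap1 and Tap2 differed by 0.52 ± 0.08 and 0.33 ± 0.07. The class I genes are a family of near-identical copies, so their probes may share signal, which was not tested. The ISRE core was present in 9 of 16 promoters of this list, or 56.2%.

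Class II genes, which display peptides taken up from outside and are made mainly by macrophages, dendritic cells and B cells, had a median of 1.01 over 8 genes. None was called by limma, beside 6.27% of all genes. Cd74, the invariant chain, lay at 2.86 and 2.29 on the WT arrays and at 3.64 on the SPORTS array. RT1-Da, a class II alpha chain, lay at 1.03 and 0.40 and at 2.0. The WT arrays were themselves apart here, with a median difference of -0.55 between WT array 2 and WT array 1.

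Macrophage and monocyte markers moved with the class II genes. All 16 tested lay above both WT arrays, beside 42.1% of all genes, with a median of 1.01. Of the 16, 1 was called, beside 6.27% of all genes. The WT arrays differed by a median of -0.50 in the same sense as for class II. The summed level of these markers, in multiples of each array's 75th percentile, was 75.6 and 52.0 on the WT arrays and 120 on the SPORTS array. Of 19 markers on the array, 16 were well above background on each WT array and 18 on the SPORTS array. The part of macrophage content in the class II, complement and interferon results was not tested, and in whole muscle a change in cell number cannot be told apart from a change in RNA per cell. Siglec1 (CD169), a sialic acid receptor of macrophages that interferon induces, was the one marker called, and it rose from -2.35 and -2.73 to -0.20 (difference 2.34 ± 0.21, adjusted p = 0.0450, limma). Cd68 and Cd163 differed by 1.06 ± 0.33 and 1.19 ± 0.23 and did not pass.

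Complement genes were higher in part. Cfb, factor B of the alternative pathway, lay at 1.17 and 1.08 on the WT arrays and at 3.16 on the SPORTS array, a rise of 2.04 ± 0.08. C2, its counterpart in the classical pathway, rose by 0.80 ± 0.08. C1qa, C1qb and C1qc, which macrophages make, differed by 0.96 ± 0.21, 1.09 ± 0.22 and 1.1 ± 0.27 and are also in the macrophage list. C6, of the membrane attack complex, rose from -1.98 and -2.40 to 0.21 (2.40 ± 0.23). The iron-binding lipocalin gene Lcn2 passed the detection filter only through the SPORTS arrays and was at least 3.08-fold higher. A2m, a protease inhibitor, was at least 2.88-fold lower. Slpi, another protease inhibitor, lay at -2.74 and -3.76 on the WT arrays, of which 1 was well above background, and at -0.54 on the SPORTS array, and did not pass (adjusted p = 0.0817, limma).

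Other immune cell markers were few. Of 13 lymphocyte markers on the array, 4 and 2 were well above background on the WT arrays and 5 on the SPORTS array. The 5 lymphocyte markers tested had a median of 0.48. They ran from -0.11 for Cd3d, of the T cell receptor, to 0.91 for Ptprc, which all white cells share. None lay 2-fold or more beyond both WT arrays, which for so short a list is near the 4.05% of all genes. Of 11 neutrophil markers, 2 were well above background on each WT array and 3 on the SPORTS array. S100a8 and Elane were below that limit on every array compared. Of 4 neutrophil markers tested 1 rose, Lcn2, given above, beside 2.82% of all genes. Cxcr2 lay 2-fold or more below both WT arrays without passing, and its difference ran from -4.62 to -1.79 over the settings. Mast cell markers split. The proteases Cma1 and Cpa3 rose by 1.63 ± 0.08 and 1.22 ± 0.09, the histamine enzyme gene Hdc fell by 1.0 ± 0.06, and the tryptase genes Tpsab1 and Tpsb2 differed by -0.41 ± 0.12 and 0.44 ± 0.07. Red blood cell markers had a median of -0.77 over 5 genes, with none 2-fold or more beyond both WT arrays. Their summed level was 228 and 268 on the WT arrays and 139 on the SPORTS array.

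**Figure D4:**
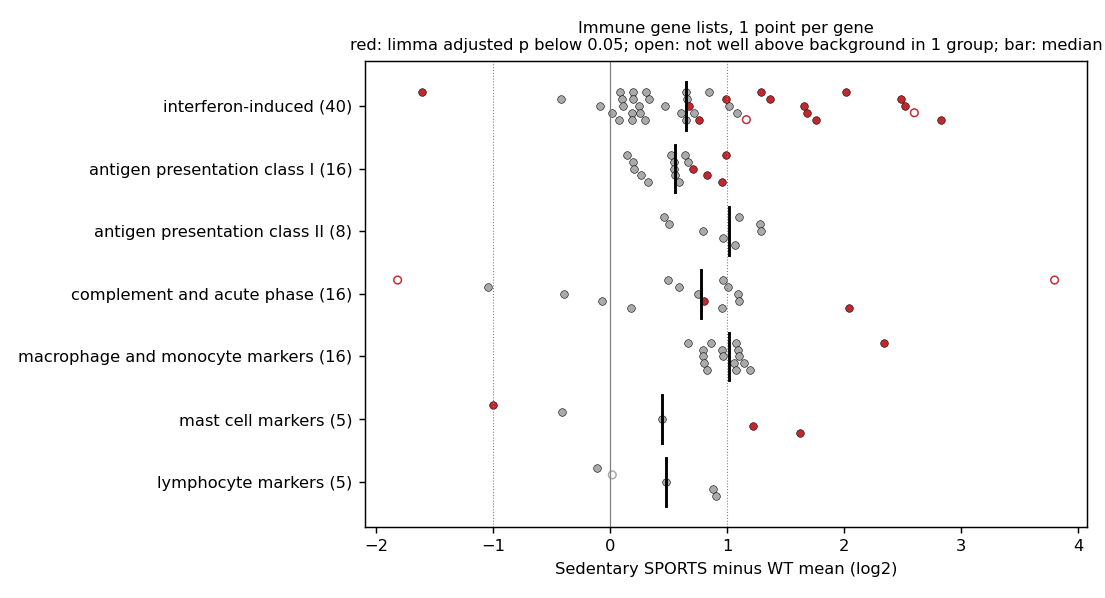
Difference between the SPORTS array and the WT mean (x axis, log2) for each gene of 7 immune lists, with the number tested in brackets. Red points passed the limma test, open points are not well above background in 1 group and bars are medians. All class I, class II and macrophage genes lie to the right of 0, and the red points of the interferon list reach 2.83.

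None of 68 oxidative phosphorylation genes was called, against 6.27% of all genes, and their differences ran from -0.28 to 0.32 with a median of -0.05. This held in complex I (32 genes), complex IV (13 genes) and the ATP synthase (14 genes). Of 22 genes of the tricarboxylic acid cycle and linked enzymes, 1 lay 2-fold or more beyond both WT arrays, a share near the 4.05% of all genes. It was Idh1, the cytosolic isocitrate dehydrogenase, which fell by 1.36 ± 0.06. Cs, citrate synthase, differed by 0.06 ± 0.06. Regulators of mitochondrial biogenesis had a median of -0.01 over 19 genes. Ppargc1a, the coactivator PGC-1alpha, differed by -0.21 ± 0.06, and Perm1, a target of that pathway, rose by 0.79 ± 0.08.

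Of 45 genes of fatty acid use tested, 6 fell and none rose, against 3.45% and 2.82% of all genes, with a median of -0.20. Of the 45, 32 lay below both WT arrays, beside 45.1% of all genes. Cd36, the fatty acid carrier of the muscle membrane, lay at 5.56 and 5.72 on the WT arrays and at 4.16 on the SPORTS array. It fell by 1.48 ± 0.10 (adjusted p = 0.0383, limma), and its second probe differed by -1.47. Lpl, the lipase that frees fatty acids from lipoproteins, fell by 0.80 ± 0.07, and Mlycd, malonyl-CoA decarboxylase, by 0.85 ± 0.06. Among targets of the PPAR receptors, Plin5, a coat protein of droplets beside mitochondria, fell by 1.07 ± 0.07 and Pdk4, which inhibits pyruvate dehydrogenase, by 0.92 ± 0.07. None of 15 beta-oxidation enzymes was called, which for so short a list is near the 6.27% of all genes. Cpt1b, the muscle carnitine transferase, differed by -0.23 ± 0.07, and Acadm and Hadha, of the oxidation spiral, by -0.08 ± 0.07 and -0.20 ± 0.06.

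Of 15 genes of triglyceride synthesis and storage tested, 6 fell and 2 rose, against 3.45% and 2.82% of all genes, and the median was -0.21. Dgat2, one of the enzymes of the last step of triglyceride synthesis, lay at 3.20 and 3.32 on the WT arrays and at 0.67 on the SPORTS array. It fell by 2.59 ± 0.09, or 6.04-fold (adjusted p = 0.0319, limma), while Dgat1, the other such enzyme, differed by -0.29 ± 0.06. Gpam and Agpat2, of the first acylation steps, fell by 0.85 ± 0.07 and 0.91 ± 0.07, and Lpin1, a phosphatidate phosphatase, was at least 2.63-fold lower. Of the lipases, Pnpla2 (ATGL) fell by 0.85 ± 0.06 and Lipe (hormone-sensitive lipase) was at least 2.45-fold lower. G0s2, an inhibitor of ATGL, rose by 0.85 ± 0.07, and Cidea, a droplet protein, rose by 1.08 ± 0.06 with 1.18 on its second probe. Adipocyte markers, a possible source of such transcripts, had a median of -0.27 over 6 genes. Adipoq, made by fat cells, lay at -0.38 and 0.30 on the WT arrays and at -0.79 on the SPORTS array, and did not pass. Of 12 listed adipocyte markers 10 were on the array, and their summed level over the 6 tested was 22 and 27.5 on the WT arrays and 20.1 on the SPORTS array. Lipe, which is in both lists, was the one adipocyte marker 2-fold or more beyond both WT arrays, beside 4.05% of all genes. The part of fat cells in these results was not tested.

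Of 35 glycolysis genes, 2 rose and 1 fell, a share near the 6.27% called over all genes. Hk2, the insulin-regulated hexokinase, rose by 0.77 ± 0.07, Pdp2, a phosphatase that activates pyruvate dehydrogenase, rose by 0.81 ± 0.07, and Pfkfb1, which sets fructose bisphosphate levels, fell by 1.5 ± 0.07. Aldoa and Ldha, which are high in fast fibres, differed by -0.42 ± 0.06 and -0.55 ± 0.10 without passing. Of 17 glycogen genes, 1 lay 2-fold or more beyond both WT arrays, which for so short a list is near the 4.05% of all genes. It was Ppp1r3a, the muscle subunit that brings protein phosphatase to glycogen, which fell by 1.51 ± 0.06. Pygm, the muscle phosphorylase, differed by -0.40 ± 0.06. Among genes of high-energy phosphate, Ak1, the muscle adenylate kinase, lay at 4.10 and 4.36 on the WT arrays and at 6.70 on the SPORTS array. It rose by 2.47 ± 0.15 (adjusted p = 0.0382, limma). Prkab2, a subunit of the AMP-activated kinase, fell by 1.38 ± 0.06, and Odc1, of polyamine synthesis, rose by 2.13 ± 0.07. Ckm, muscle creatine kinase, and Mb, myoglobin, differed by -0.27 ± 0.08 and -0.52 ± 0.07. Hpd, an enzyme of tyrosine breakdown, rose from -3.58 and -3.28, of which 1 was not well above background, to -0.52 (2.91 ± 0.17).

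**Figure D5:**
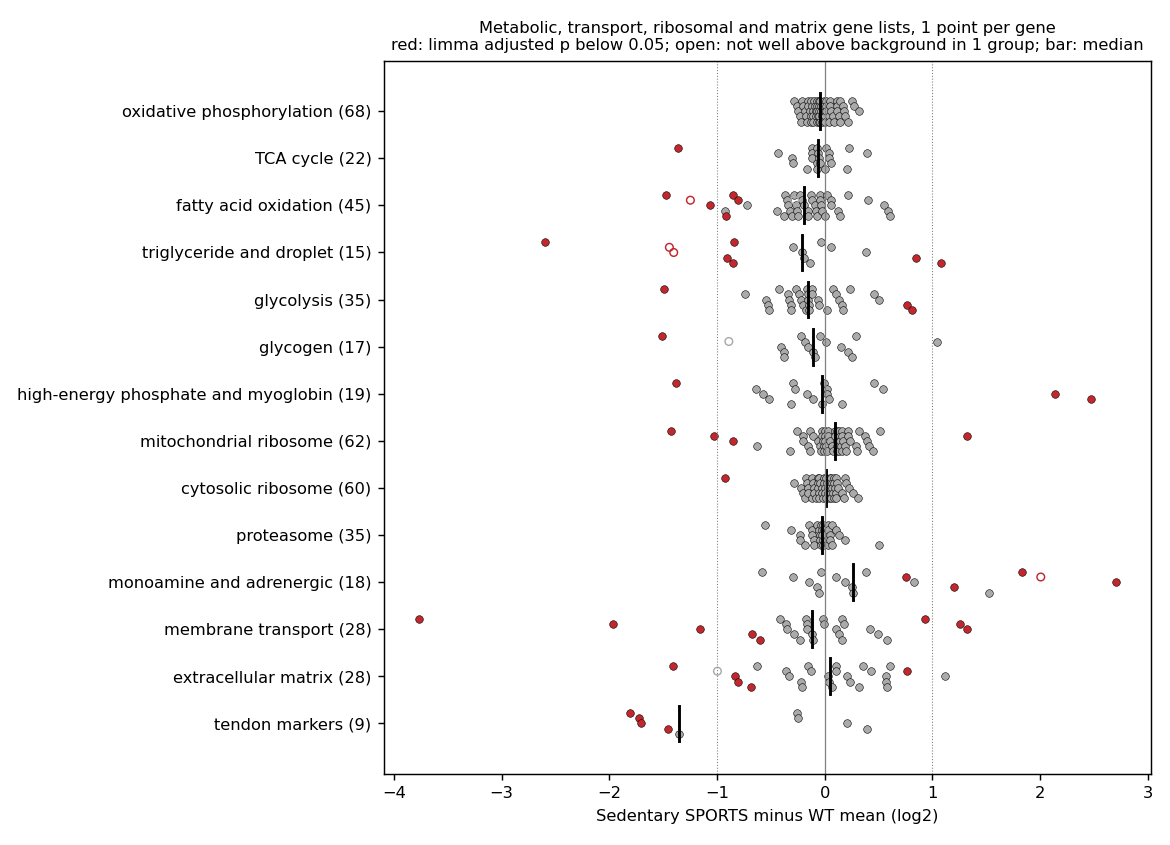
Difference between the SPORTS array and the WT mean (x axis, log2) for each gene of 14 lists, with the number tested in brackets. Red points passed the limma test, open points are not well above background in 1 group and bars are medians. Oxidative phosphorylation and cytosolic ribosome genes cluster at 0, with Rpl13 apart at -0.92, and the tendon median lies at -1.35.

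Genes of amine metabolism were higher in a few members. The strain has been studied for Maoa, which encodes monoamine oxidase A and breaks down serotonin and noradrenaline. Maoa lay at -0.54 and -0.54 on the WT arrays and at -0.43 on the SPORTS array, a difference of 0.11 ± 0.06 that did not pass (adjusted p = 0.309, limma) and was -0.02 with another background correction. Of 18 monoamine and adrenergic genes tested, 5 rose and none fell, against 2.82% and 3.45% of all genes. Ddc, the decarboxylase that makes dopamine and serotonin, rose from -1.91 and -1.94 to -1.17. Gch1, which starts synthesis of the cofactor tetrahydrobiopterin, was at least 2.82-fold higher and passed the detection filter only through the SPORTS arrays. Pdxk, the pyridoxal kinase, rose by 2.71 ± 0.09, with 1 WT array not well above background. Tph1, the enzyme that starts serotonin synthesis, lay at -3.83 and -3.37, of which 1 was not well above background, and at -2.07 and did not pass. Th, tyrosine hydroxylase, and Slc6a2, the noradrenaline transporter, differed by -0.03 ± 0.14 and -0.30 ± 0.07. Of 28 listed genes, 10 were not well above background on any of the 3 arrays, among them Dbh and Slc6a4.

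Membrane transport genes shifted one by one. Aqp4, the water channel of fast fibre membranes, lay at -0.03 and 0.18 on the WT arrays and at -3.69 on the SPORTS array. It fell by 3.77 ± 0.12, or 13.6-fold (adjusted p = 0.0319, limma), and Aqp1, the water channel of vessels, differed by -0.36 ± 0.07. The carbonic anhydrase gene Car4 rose by 1.26 ± 0.07 and Car8 by 0.93 ± 0.06, while Car3, the abundant form of slow muscle, differed by 0.10 ± 0.06. Among potassium channels, Kcnc4 fell by 1.96 ± 0.06 and the beta subunit gene Kcnab1 rose by 1.32 ± 0.07. Slc12a2, a sodium, potassium and chloride cotransporter, fell by 1.16 ± 0.07 and Clcn1, the muscle chloride channel, by 0.67 ± 0.06. Over 28 transport genes tested the median was -0.12.

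At the nerve and its junction, Chrng, the fetal gamma subunit of the acetylcholine receptor, rose from -0.93 and -1.09 to 0.48 (difference 1.5 ± 0.11, adjusted p = 0.0391, limma). Chrne, the adult subunit that replaces it, differed by 0.92 ± 0.21 and Chrna1 by 0.94 ± 0.23, both without passing. Colq, the collagen tail that anchors acetylcholinesterase, lay at -0.77 and -1.0 on the WT arrays and at 0.29 on the SPORTS array, and did not pass. Of 17 junction genes tested, Chrng and Colq lay 2-fold or more above both WT arrays and none as far below, beside 1.88% and 2.17% of all genes. The median of the 17 was 0.14. Among nerve markers, the neurofilament genes Nefh and Nefm were at least 2.67-fold and 1.45-fold lower. The difference of Nefm ran from -1.15 to -0.47 over the settings. Markers of Schwann cells lay higher or near WT, with S100b called (0.72 ± 0.06). Mbp, a myelin gene, lay at 1.02 and 0.74 and at 2.09, and its second probe was not above background. The number of nerve fibres in each sample was not measured.

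Activity-induced and hormone-responsive genes differed in part. Of 24 immediate early genes tested, 4 rose and none fell, against 2.82% and 3.45% of all genes. Klf2 and Klf4 rose by 1.02 ± 0.06 and 1.33 ± 0.06 and Jund by 0.75 ± 0.06, and Nr4a3, a nuclear receptor induced by exercise, was at least 1.35-fold higher. Nr4a3 passed the detection filter only through the SPORTS arrays, and its difference ran from 0.43 to 2.66 over the settings. Egr1 lay at -2.35 and -2.0 on the WT arrays and at -0.97 on the SPORTS array, 2-fold beyond both, and did not pass. Fos, Junb and Nr4a1, which answer within minutes to contraction, differed by -0.47 ± 0.44, 0.04 ± 0.14 and -0.52 ± 0.15. Of 18 glucocorticoid-responsive genes, 3 fell and 1 rose, against 3.45% and 2.82% of all genes. Klf9, Pdk4 and Lpin1 fell, Klf9 by 0.86 ± 0.06, and Cebpd rose by 1.01 ± 0.07. Fkbp5 and Tsc22d3, which glucocorticoids induce in most tissues, differed by -0.07 ± 0.08 and -0.34 ± 0.06.

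Tendon and matrix genes were lower in part. Of 9 tendon markers, 4 fell, 5 were 2-fold or more below either WT value and the median was -1.35, against 3.45% of all genes called lower and 2.17% as far below. With detection required on all 4 arrays, which leaves out tendon markers dim on the exercised array, the median was -0.02. Fmod, fibromodulin, lay at 5.99 and 5.87 on the WT arrays and at 4.22 on the SPORTS array, and Chad, chondroadherin, at 2.61 and 2.47 and at 0.82. Tnmd, tenomodulin, fell by 1.46 ± 0.06 and Cilp2 fell by 1.80 ± 0.12, while Kera, keratocan, at -1.35 ± 0.14, did not pass. Scx, the tendon transcription factor, differed by 0.40 ± 0.09 in the opposite sense. The summed tendon level was 102 and 93.5 on the WT arrays and 53.5 on the SPORTS array. Col1a1, a chain of type I collagen made by tendon and fibroblasts alike, fell by 1.41 ± 0.06, with -1.52 on its second probe, and Col1a2, the other chain, by 0.68 ± 0.06. Col3a1 differed by 0.32 ± 0.07. Of 28 matrix genes tested, Postn and Timp3 also fell, by 0.81 ± 0.07 and 0.83 ± 0.06, and Mmp14 rose by 0.76 ± 0.08. How much tendon each sample held was not tested.

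None of 35 proteasome subunit genes was called, beside 6.27% of all genes, a share at which few calls would fall in a list of this size. All 11 ubiquitin ligase and ubiquitin genes tested lay below both WT arrays, beside 45.1% of all genes, but none was called, and their differences ran from -0.41 to -0.05. Fbxo32 (atrogin-1) and Trim63 (MuRF1), which rise in wasting muscle, differed by -0.41 ± 0.08 and -0.37 ± 0.07. Of 60 cytosolic ribosomal protein genes, none lay 2-fold or more beyond both WT arrays, beside 4.05% of all genes. Rpl13 fell by 0.92 ± 0.06. Of 62 mitochondrial ribosomal protein genes 4 were called, a share near the 6.27% of all genes. Mrpl3, Mrpl18 and Mrpl52 fell by 0.85 ± 0.06, 1.03 ± 0.07 and 1.43 ± 0.06, and Mrpl4 rose by 1.32 ± 0.07.

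Further genes with wide gaps belonged to none of these lists. Tpd52l1, of the tumour protein D52 family, lay at 2.05 and 2.05 on the WT arrays and at -1.11 on the SPORTS array, and its 3 probes differed by -3.16, -3.18 and -2.03. Mcrip1 fell by 2.74 ± 0.07, with -1.84 on its second probe, and Pced1b by 2.68 ± 0.14. Rhbdl3, of the rhomboid family, was at least 5.99-fold lower and Dpep1, a membrane dipeptidase, at least 5.70-fold lower. Neil1, a DNA glycosylase of base excision repair, rose from -3.61 and -3.21 to -1.02 (2.38 ± 0.22). Lpar3, a receptor for lysophosphatidic acid, lay at -3.59 and -5.83 on the WT arrays and at -1.15 on the SPORTS array, and Nrn1, neuritin, at -5.92 and -2.85 and at -0.68. For each of them 1 WT array was well above background and the other was not, and neither gene passed (adjusted p = 0.154 and 0.218, limma).

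Second probes gave a check that the choice of the brightest probe did not use. Genes at least 2-fold beyond both WT arrays had 33 further probes well above background on all 3 arrays. Of these, 29 differed in the same direction as the probe used and 22 of them by 2-fold or more. Tpm1, Tpm3 and Npas2 are described above with probes that differ in size or direction. Of the 540 genes, 149 were not well above background in 1 of the groups, so the size of their gap is uncertain.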

How the data were processed

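RNA of rat skeletal muscle was hybridised to one-colour Agilent arrays, 1 array per sample, all on 1 slide per the file headers. The deposited scanner files hold the intensity of each spot, which the authors extracted with Agilent Feature Extraction 10.7.1.1, per the submitters' processing notes. The log2 values of the authors' deposited value table served only as an alternative. Control spots and 352 probes with outlier flags were left out, which kept 30015 probes. The log2 of the processed signal was taken minus the 75th percentile of each array. A gene was read from its brightest probe, and levels of different probes were not compared, except that the levels of a marker list were summed within each array as a description. Genes well above background on at least 2 of the 4 arrays were tested, 13326 of 26624 genes or accessions, of which 8477 had a symbol in RefSeq.

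Differences were fitted with limma 3.58.1 in R 4.3.3 (lmFit and eBayes, Benjamini-Hochberg over all genes tested, adjusted p below 0.05), which left 1 residual degree of freedom, and ± is the standard error of that fit. An exact permutation test of 1 array against 2 cannot go below p = 0.333, so none is given. The scripts were tested on simulated data. A gene not well above background in 1 group is given as "at least N-fold". On each array of the dim group the value used was the lowest signal well above background, or the gene's own signal where that was higher. For Rhbdl3 and Dpep1 the bound is therefore the same as the measured fold. The main limma fit used the measured signal throughout, also where it was not well above background. An adjusted p beside such a bound therefore belongs to the measured difference and not to the bound. The number of arrays limits the precision, and spread between SPORTS animals was not measured.

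The comparison, the gene lists and the genes named were chosen with earlier results of these data known. Named were the 15 higher and 15 lower genes with the widest gap to the nearer WT array, members of each list at least 2-fold beyond both WT arrays (at most 4 per role), members that define a role or complete a small count, and Maoa. Others in the text were named after their values were seen, and some members of the lists counted are not reported here by name. Alternatives changed the scaling, background correction, detection filter, probe rule, variance model and source of values, or left out a WT array. A filter on the 3 arrays compared was added after seeing the data.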

Additional observations from a re-analysis of the deposited data

How the results depend on the processing

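The count of genes called by limma was 836 and depended on the filter and the model. It was 1961 with normexp background correction, 2170 with detection required on all 4 arrays, 1313 with detection on the 3 arrays compared, 1415 with dim values at the floor, 2784 with a variance trend and 0 with no filter, where 5509 genes had an unadjusted p below 0.05. It was 828 with median scaling, 766 with quantile normalization, 861 with the authors' table and 599 with the mean of probes. The count at least 2-fold beyond both WT arrays was 540. It was 316 with normexp, 1330 with no filter and 292 with detection on all 4 arrays, and ran from 462 to 551 under the other array-wide settings. Leaving out 1 WT replicate gave 686 to 873. Maoa changed sign with normexp, to -0.02, and the monoamine list's median with no filter, to -0.04. With detection on all 4 arrays the tendon median was -0.02 and the monoamine median 0.04. With quantile normalization the slow fibre and oxidative phosphorylation medians were 0.15 and 0.03. Why these values moved was not tested. Of 105 named genes followed, 92 lost their limma call with no filter, 12 with the mean of probes, 2 with the floor, 1 with quantile normalization and 1 with the variance trend. Calls were gained by 11 with normexp, 10 with the variance trend, 6 with the floor, 4 with detection on the 3 arrays compared and 4 with detection on all 4, where 37 of the 105 were no longer tested. With median scaling or the authors' table, all 105 kept their direction and their side of the threshold. The authors' table holds nearly the same differences between arrays, so it is not an independent check. With 1 WT array left out all 105 also kept their direction, but the choice of genes had fixed this outcome. Each gene followed lay above both WT arrays or below both, so leaving out either array could not reverse it. Without a WT array no test was possible, since no residual degree of freedom is left. No paired analysis was possible because the groups share fewer than 2 replicate numbers. Signal over background limits the 149 genes at least 2-fold beyond both WT arrays that were dim in 1 group.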

Other observations

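Of 28 insulin and IGF genes tested, 2 fell and none rose by limma, a share near the 6.27% called over all genes, with a median of 0.12. Pik3r1, the regulatory subunit of the kinase PI3K, fell by 0.73 ± 0.07, and Foxk1, a forkhead factor downstream of insulin, by 0.76 ± 0.06. A second probe of Foxk1, well above background on 2 of the 3 arrays, differed by -0.10. Irs2, an adaptor of the insulin receptor, lay at -1.23 and -0.94 on the WT arrays and at 0.34 on the SPORTS array, 2-fold beyond both, and did not pass (adjusted p = 0.0517, limma). The glucose transporter gene Slc2a4 (GLUT4) differed by -0.04 ± 0.06. Among 15 myokine genes tested 2 rose and none fell, against 2.82% and 3.45% of all genes. The chemokine gene Cxcl12 rose by 1.12 ± 0.06, but its second probe, well above background on the 3 arrays, differed by 0.46.

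None of 28 antioxidant genes and none of 18 glutathione transferase genes was called. With 6.27% of all genes called, few calls would fall in lists of this size, so these counts show little. No chaperone gene of 23 lay 2-fold or more beyond both WT arrays, beside 4.05% of all genes. Hsph1, a large heat shock protein, rose by 0.72 ± 0.07. In the amino acid stress response, with 2 of 14 genes called against 6.27% of all genes, Chac1, which degrades glutathione, fell by 1.80 ± 0.10, and Mthfd2, of mitochondrial folate metabolism, rose by 0.80 ± 0.06. Atf4, the factor that heads this response, differed by 0.19 ± 0.08. No iron gene of 12 lay 2-fold or more beyond both WT arrays, which for so short a list is near the 4.05% of all genes. Ncoa4, the receptor for ferritin breakdown, rose by 0.72 ± 0.06. None of 16 cholesterol synthesis genes and none of 12 cell cycle genes was called, which for such short lists is near the 6.27% of all genes.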
